A study of Mus musculus with 13 samples.

Results

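The nuclear genes that encode the protein subunits of respiratory complexes II, III, IV and V were followed in interscapular brown adipose tissue (iBAT) of mice. The set was chosen by symbol. It holds the protein-coding Sdh genes of complex II, the Uqcr genes with Cyc1 and the electron carrier Cycs for complex III, Cox4i1, Cox5a, Cox5b, Cox6a1, Cox6a2, Cox6b1, Cox6c, Cox7a2, Cox7b, Cox7c and Cox8a for complex IV, and every gene whose symbol starts with Atp5, other than Atp5s and Atp5sl, for complex V. It comprised 42 of 42416 identifiers in the deposited counts, with 41 symbols, because Atp5o has 2 identifiers. There were 4 genes of complex II, 10 of complex III with Cycs, 11 of complex IV and 17 of complex V. All 42 of them passed the filter on low values, more than 1 CPM (counts for each M of the library total) in at least 5 libraries. Gene levels in CPM below are scaled further, as given with the processing.

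The 8 iFAXLKO mice carried loxP sites in Axl and were Cre positive. The 5 WT mice carried the same floxed Axl and were Cre negative. Both groups received HFD (a high-fat diet) with free access, were kept at room temperature and were treated with tamoxifen every 3 weeks, where the labels name 1 treatment each time and the methods of the study gavage on consecutive days. The study describes them as female littermates. The Cre was Adipoq-CreERT2, an inducible Cre expressed from a bacterial artificial chromosome around the adipocyte gene Adipoq, so that other cells of the tissue were not targeted by design. By the methods of the study the mice were young adults when the Cre was induced and the diet began, and their age at collection is not given in the sources used here. There was 1 library per sample.

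Brown fat burns fuel in mitochondria to make heat. Electrons enter the respiratory chain through complex I or through complex II (succinate dehydrogenase, which is also an enzyme of the citric acid cycle), pass through complex III (cytochrome bc1) and cytochrome c to complex IV (cytochrome c oxidase), and the proton gradient that complexes I, III and IV build is used by complex V (ATP synthase) or is released as heat through UCP1. Complex II is encoded by nuclear genes alone, whereas complexes III, IV and V are mosaics of nuclear and mitochondrial gene products. Brown adipocytes are known for a dense respiratory chain and for little ATP synthase relative to it.

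Axl (ENSMUSG00000002602, chromosome 7, 25757273 to 25788705), the targeted gene, which the Cre was meant to remove from adipocytes, was at 33.1 ± 6.16 CPM (mean ± SD) in the 8 libraries labelled iFAXLKO and at 27.8 ± 3.82 CPM in the 5 WT libraries, so it was no lower under the first label. Its log2 fold change was 0.25 (SE 0.13), and edgeR's adjusted p was 0.699. RNA of whole tissue includes cells that were not targeted, so these values do not show whether Axl was removed from adipocytes. The study examined this by a blot of AXL protein in the mature adipocyte fraction of inguinal white fat. Every direction given for iFAXLKO below therefore refers to the libraries with that label. Libraries held 22.44 to 32.6 M counts. The label of the tissue was checked against 10 brown adipocyte markers, none of which was at 0 in any library, with summed levels of 15176 to 19750 CPM in the libraries labelled iFAXLKO and 16516 to 23758 CPM in WT. In bulk tissue, fewer cells of a type and less RNA per cell cannot be told apart.

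One library stood apart for these genes before any comparison was made. In WT replicate 2, 39 of 42 members were at their highest of all 13 libraries, and their median level was 1.56 times the median of the other libraries. The 42 members took 5.177% of its counts, against 3.613% to 4.385% in the others. WT replicate 1 was at the other end, with 27 of 42 members at their lowest there. In WT replicate 2, shorter genes were high and longer genes low across the transcriptome, with a Spearman rho of -0.58 between a gene's deviation and its exon length over 12354 protein-coding genes. Medians and the named fold changes between groups are given with and without this library, here or with the alternatives at the end.

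Transcript abundance differed widely among subunits. Levels between genes are compared here as CPM per kb of exon, averaged over the 13 libraries, where the exon length is the union of all annotated exons of a gene and a gene with a long rarely used exon is therefore understated. The range ran from 1.4 for Atp5g1 to 1989 for Cox6a1. Cox6a1, a nuclear subunit of complex IV, and Atp5b, the catalytic beta subunit of the F1 head (1957 CPM per kb), lay close together at the top. They were followed by Cox8a (1508), Cox6b1 (1433), Atp5a1, the F1 alpha subunit (1296), and Cox4i1 (1192).

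Subunits of the same complex did not share a level per kb. In complex II, Sdha, the flavoprotein that oxidises succinate, had 678 CPM per kb and the iron-sulfur subunit Sdhb 522. The membrane anchors Sdhd and Sdhc had 634 and 167. Complex III ranged from 848 for Uqcr10 to 453 for the core protein Uqcrc1, with Cycs at 103. Complex V spanned the widest range, from Atp5b to Atp5l and Atp5g1, and its median of 266 CPM per kb lay under those of complexes II, III and IV (578, 548 and 483). Atp5l, the g subunit of the membrane part, had 2.22 CPM per kb.

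**Figure D1:**
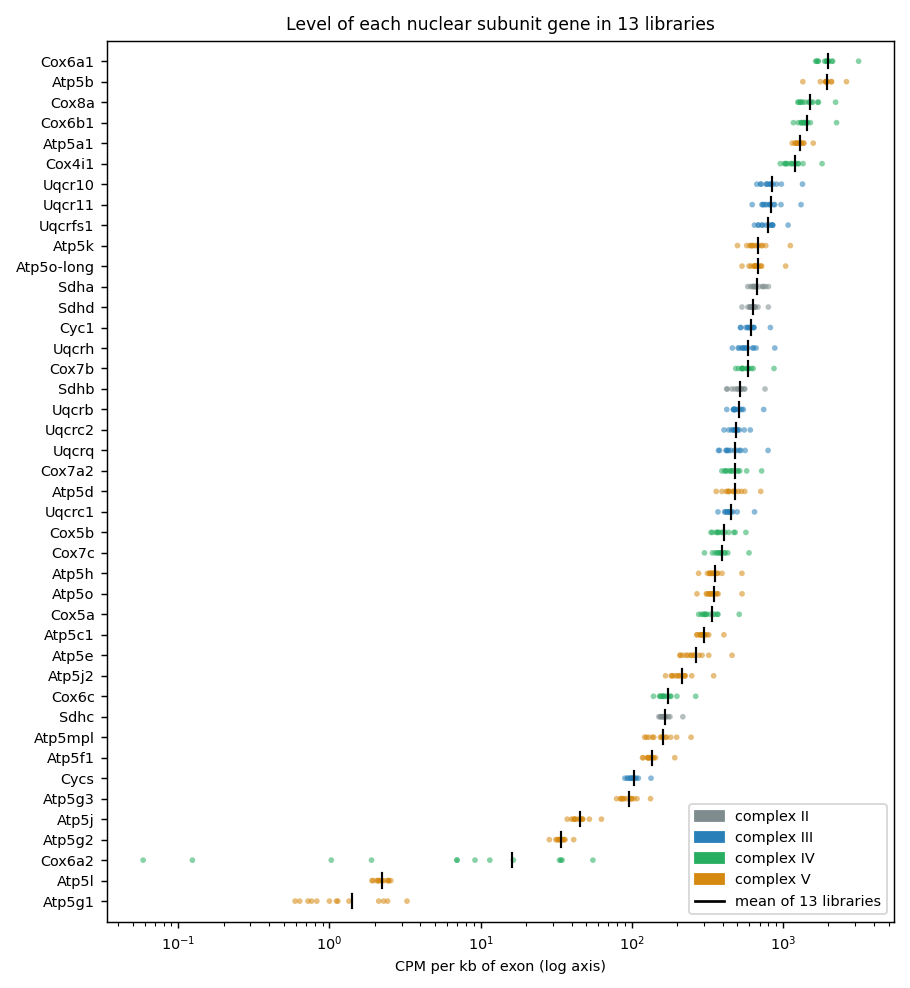
Each row is a member gene, ordered by mean level, and each point is 1 of 13 libraries in CPM per kb of exon on a log axis, coloured by complex, with the mean as a bar. Cox6a1 and Atp5b were highest, Cox6a2, Atp5l and Atp5g1 lowest, and only Cox6a2 and Atp5g1 were widely spread, with the rightmost point of nearly every other row being WT replicate 2. Atp5o-long is the second Atp5o identifier.

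The low value per kb of Atp5l goes with a long exon union (6443 bases) and with near-identical sequence elsewhere. Its transcript has copies of at least 95% identity over at least 100 bases in 10 other annotated genes, the longest being the processed pseudogene Gm4853 (96.7% over 394 of 544 bases), and reads that fit several places may not have been counted. Over the set, 17 of 42 members had such a copy. In 7 of the 17 a copy is itself in the deposited table. The table holds all 296 processed pseudogenes annotated as transcribed but 1 of 9941 of the others, so reads assigned to those others would not appear in it. Cycs has 12 copies, Cox7c, Atp5h and Atp5g1 4 each, and Atp5g2 matches the transcribed pseudogene Gm10175 (2.31 CPM) at 100% over 645 of 731 bases. For Atp5g1 the longest match is Gm10039, at 99.8% over 411 of 4715 bases. Levels of these genes are therefore uncertain, those of Atp5g1 and Atp5g2 among them. The parts of the copies and of the exon length in the low levels of Atp5l and Atp5g1 were not tested.

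Several subunits exist as alternative genes. Subunit c, of which a ring turns in the membrane as protons pass, is encoded by Atp5g1, Atp5g2 and Atp5g3, whose mature products are the same. Per kb, Atp5g3 made 73.4% of the summed level of these 3 genes in the median library (70% to 75.3%), Atp5g2 25.4% (23.3% to 29.5%) and Atp5g1 0.827% (0.485% to 2.35%). The copies named above, and for Atp5g1 a long exon union of 4912 bases, limit these shares. Cox4i1 made 99.6% of Cox4 (99.5% to 99.7%) over Cox4i2, an isoform known for its use at low oxygen. In contrast, the isoforms that heart, skeletal muscle and brown fat share were above their ubiquitous partners. Cox7a1 made 72.8% of Cox7a (69.8% to 74.4%) over the member Cox7a2, and Cox8b 71.3% of Cox8 (67.3% to 74.3%) over the member Cox8a. Cox7a1, Cox8b and Cox4i2 are not members. Cox7a1 and Cox8b did not pass the test between groups, with log2 fold changes of -0.15 (SE 0.15, edgeR adjusted p 0.886) and -0.16 (SE 0.17, adjusted p 0.904), which without WT replicate 2 became 0.05 and 0.08. Their shares were chosen for description after the values were seen.

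The promoter DNA of the 2 extreme c genes is shown because they encode 1 mature protein, were measured at different levels within the limits just given and, as described below, vary in different ways between libraries. The stretches are from RefSeq (GRCm38.p6), end at or before the first annotated exon, and lie on the minus strand at chr11:96075671-96075881 for Atp5g1 and chr2:73911327-73911576 for Atp5g3. Capitals mark CCAAT or its reverse ATTGG, the box bound by NF-Y, and TGACCTT, the reverse of AAGGTCA, the site of ERR receptors.
Atp5g1: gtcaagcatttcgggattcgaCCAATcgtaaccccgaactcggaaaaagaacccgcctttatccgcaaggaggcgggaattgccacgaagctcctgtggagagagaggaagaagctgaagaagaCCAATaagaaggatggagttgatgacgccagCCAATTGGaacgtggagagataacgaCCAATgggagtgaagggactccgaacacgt
Atp5g3: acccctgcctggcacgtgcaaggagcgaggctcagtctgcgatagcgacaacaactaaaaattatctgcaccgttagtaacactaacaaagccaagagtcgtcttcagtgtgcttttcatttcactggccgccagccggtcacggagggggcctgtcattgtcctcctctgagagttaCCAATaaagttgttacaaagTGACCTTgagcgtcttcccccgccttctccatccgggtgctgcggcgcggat
The Atp5g1 stretch held 5 CCAAT boxes, counting a pair on opposite strands that overlap. The Atp5g3 stretch held 1 of them and the ERR letters.

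Promoters of 31 of 41 member symbols were found in the RefSeq table, and the 250 bases before their start were searched on both strands, over every listed start of a gene. GCGCANGCG, the site of nuclear respiratory factor 1 (NRF1), stood in 9 of 31 members (29%) and in 5.86% of 27025 genes. CCGGAAG, an ETS site of the kind that GABPA (nuclear respiratory factor 2) binds, stood in 9 of 31 (29%) and in 7.83% of genes. The ERR site AAGGTCA was found in 2 (6.45% against 4.7%) and the YY1 site AAGATGGCG in 1, Atp5j (3.23% against 0.71%). CCAAT, added after the sequences were seen, stood in 17 (54.8% against 37.5%). At least 1 of the first 4 motifs was found in 15 of 31 members (48.4%) and in 17.3% of genes. These are descriptions of letters, and overlapping matches on both strands of the near-palindromic NRF1 site are counted as separate matches.

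One stretch from each complex is shown, for the catalytic Sdha and Atp5b, which had the lowest p in their complexes, for Cycs, a gene known for its NRF1 site, and for Cox6a1, the member of highest level. They lie at chr13:74350281-74350490 (minus strand), chr6:50566570-50566819 (minus), chr5:115348982-115349208 (minus) and chr10:128083057-128083272 (plus). Capitals mark GCGCANGCG or its reverse CGCNTGCGC and CCAAT or its reverse.
Sdha: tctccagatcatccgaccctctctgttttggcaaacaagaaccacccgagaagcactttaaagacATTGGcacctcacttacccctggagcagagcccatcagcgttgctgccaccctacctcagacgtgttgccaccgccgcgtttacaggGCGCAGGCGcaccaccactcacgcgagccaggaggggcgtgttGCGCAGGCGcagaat
Cycs: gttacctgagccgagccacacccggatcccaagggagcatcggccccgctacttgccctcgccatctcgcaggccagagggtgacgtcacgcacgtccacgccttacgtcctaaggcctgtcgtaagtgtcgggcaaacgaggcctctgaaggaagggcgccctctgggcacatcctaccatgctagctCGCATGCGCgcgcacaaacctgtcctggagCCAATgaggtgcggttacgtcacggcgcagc
Cox6a1: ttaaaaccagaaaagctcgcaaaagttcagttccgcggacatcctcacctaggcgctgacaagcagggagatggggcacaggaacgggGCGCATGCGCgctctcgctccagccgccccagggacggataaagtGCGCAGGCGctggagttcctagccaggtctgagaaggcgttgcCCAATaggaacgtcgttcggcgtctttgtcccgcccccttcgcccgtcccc
Atp5b: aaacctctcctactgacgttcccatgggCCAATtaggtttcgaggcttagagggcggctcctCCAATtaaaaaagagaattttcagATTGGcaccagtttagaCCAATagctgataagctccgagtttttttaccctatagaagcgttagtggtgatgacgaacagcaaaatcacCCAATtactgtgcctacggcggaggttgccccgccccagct
The Cox6a1 stretch held 3 NRF1 matches and the Sdha stretch 2, whereas Atp5b had 5 CCAAT boxes and none of the first 4 motifs.

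The subunit genes moved together between libraries. After group means were subtracted, the median Pearson r over all pairs of members was 0.87 over 13 libraries, and 0.89 without Cox6a2 and Atp5g1. The first component held 89.7% of the variance of these 40 genes. Much of this rested on WT replicate 2, since without it the median r was 0.64 and the share 72.2%. The points share the library and its depth, so these values are descriptions. In 33 of 42 members r with the mean of the other members was over 0.8. The exceptions under 0.6 were Sdha (-0.07), Cox6a2 (0.42), Uqcrc2 (0.49), Atp5a1 (0.55) and Atp5b (0.57).

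The non-members most like the mean of the set, over 13 libraries with group means subtracted, were Gm21981 (r = 0.961), Tomm6, part of the mitochondrial import pore (r = 0.958), and Pomp, a proteasome assembly factor (r = 0.958). None of them passed the test between groups, with edgeR adjusted p of 0.95, 0.952 and 0.84.

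**Figure D2:**
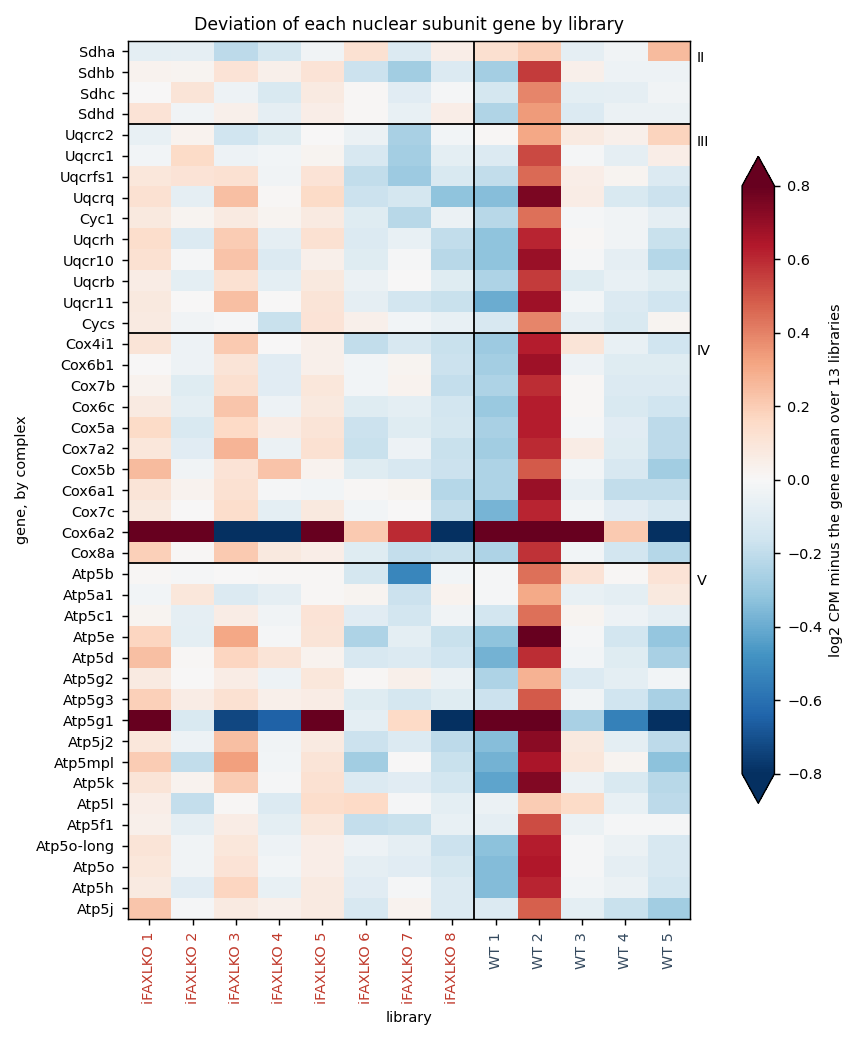
Rows are member genes by complex, columns are libraries, and colour is log2 CPM minus the mean of the gene over 13 libraries, with values past 0.8 in either direction at the ends of the scale. WT replicate 2 is raised in nearly all rows and WT replicate 1 lowered in most, while Cox6a2 and Atp5g1 follow another pattern.

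The median deviation of the members followed the exon length trend of the library. It was 0.59 in WT replicate 2 and -0.25 in WT replicate 1, where rho with exon length was 0.40, and lay between -0.16 and 0.12 in the other 11 libraries, where rho was -0.15 to 0.32. Over 13 libraries Pearson's r between both measures was -0.93 and Spearman's rho -0.91, and r was -0.80 without the 2 libraries farthest from the median trend. Members are among the genes from which the trend was computed. Within the set, the 21 shorter genes (median 1131 bases) stood at 0.61 in WT replicate 2 and the 21 longer ones (median 3135 bases) at 0.49. With the trend over exon length removed, a step chosen after the data were seen, the median deviation of the members from the WT mean fell from 0.58 to 0.24 in WT replicate 2. Its part beyond this was not tested.

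**Figure D3:**
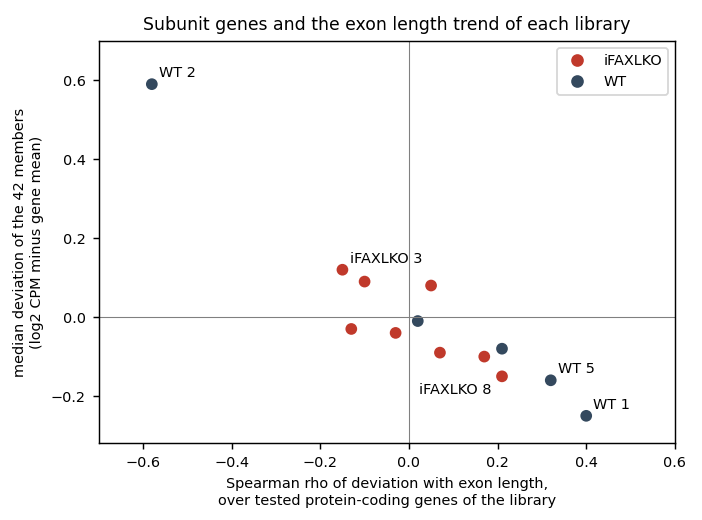
Each point is 1 library, with its Spearman rho between gene deviation and exon length on the x axis and the median deviation of the 42 members, in log2 CPM, on the y axis. WT replicate 2, at -0.58 and 0.59, lies far from the other 12 libraries, which slope from upper left to lower right.

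The comparison of the groups asks whether respiratory subunit transcripts changed in brown fat of mice with Cre directed at floxed Axl. None of the 42 members passed edgeR's quasi-likelihood test at an adjusted p under 0.05, where 0.127% of the 13360 genes tested did (17 genes). The lowest adjusted p among members was 0.551. At an unadjusted p under 0.05 there was 1 member, Uqcrc2, against 7.38% of all genes, and DESeq2 called 0 members, with 3 at an unadjusted p under 0.05 (8.3% of all genes). No member had CPM ranges that did not overlap between the groups, as 0.434% of genes did.

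Fold changes were small and mostly below 0. Of 42 members, 36 had a log2 fold change below 0, against 53.6% of all genes, and the median was -0.06 (-0.01 for all genes). Without WT replicate 2 the order turned, with 36 of 42 above 0 (51.5% of all genes) and a median of 0.12. Then 7 members had an unadjusted p under 0.05 (12% of all genes), namely Uqcrc2 below 0 and Atp5d, Atp5g2, Atp5g3, Atp5j, Atp5k and Cox6a1 above 0, and the lowest adjusted p was 0.341. Without WT replicate 1 the median was -0.13. The sign of the median also turned with all 13 libraries kept, to 0.09 (36 of 42 above 0) with limma-voom and sample quality weights, to 0.04 (29 above 0) with the replicate number as a block, and to 0.01 (26 above 0) with library totals alone, where the median of all genes was 0.04. Sample quality weights can lower the part of an outlying library such as WT replicate 2, and the weights were not examined. With the block, replicates 6, 7 and 8 exist only under iFAXLKO, so the group difference rests on replicates 1 to 5. The sign of the median thus depended on WT replicate 2 and on the model. The 6 libraries of lowest number in the labels, 4 labelled iFAXLKO and 2 WT, gave a difference of -0.15 in the median member, and the 7 of higher number gave 0.02.

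Marker lists of other cell types were read in the same libraries, beside 7.38% of all genes at an unadjusted edgeR p under 0.05. Of 8 fibroblast markers 8 were higher in the libraries labelled iFAXLKO, with a median log2 fold change of 0.55 and 7 at an unadjusted p under 0.05. Their summed levels overlapped, with 520 to 1162 CPM against 381 to 681 CPM in WT. Of 7 macrophage markers 7 were higher, with a median of 0.39 and 7 at an unadjusted p under 0.05, and summed 125 to 236 CPM against 102 to 150 CPM. No gene of either list passed the adjusted test, and without WT replicate 2 the medians were 0.60 and 0.39. All 5 erythroid markers were higher, with a median of 0.34, which was 0.62 without WT replicate 2, and 5 of 6 endothelial markers, with a median of 0.18 (0.09 without it). Neither list had a gene that passed the adjusted test, and each had 1 at an unadjusted p under 0.05. Of the 10 brown adipocyte markers 7 were lower, with a median of -0.05 (0.03 without WT replicate 2), and 1 passed, against 0.127% of all genes. It was Adipoq, the gene around which the Cre transgene was built, at 879 to 1300 CPM against 621 to 865 CPM (log2 fold change 0.66, edgeR adjusted p 0.0118), and it had 0.74 without WT replicate 2. Over the 10 brown adipocyte markers the log2 fold changes ran from -0.69 to 0.66. At an unadjusted edgeR p under 0.05 there were 2 of them, 1 higher and 1 lower. Of 15 skeletal muscle markers 14 were lower, with a median of -0.27 (-0.03 without that library) and 0 at an unadjusted p under 0.05. Summed lymphocyte markers were 23.5 CPM in WT replicate 1, where most subunit genes were lowest, and 1.31 to 6.77 CPM in the other libraries. The part of these cells in the values of the subunit genes was not tested.

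**Figure D4:**
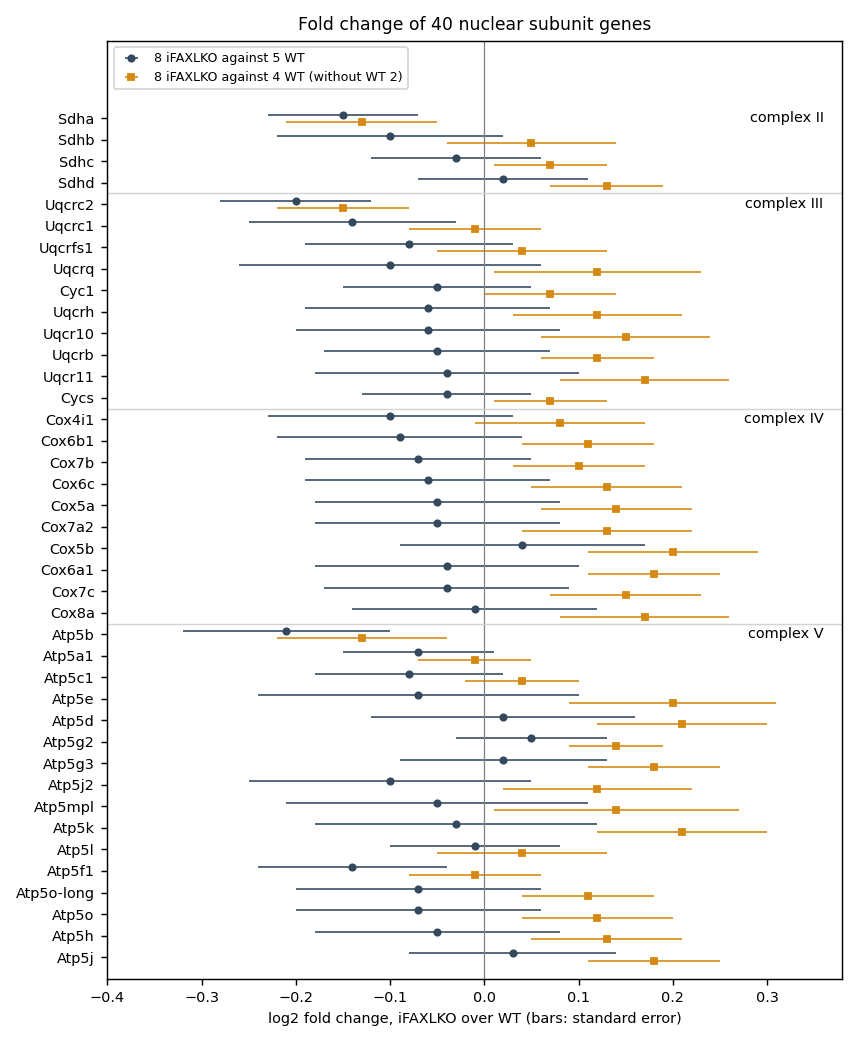
Log2 fold changes with standard errors are drawn for 40 members by complex, with all libraries (circles) and without WT replicate 2 (squares), leaving out Cox6a2 and Atp5g1, whose standard errors were 1.12 and 0.46. Most circles lie left of 0 and most squares right of it, while Sdha, Uqcrc2 and Atp5b stay left in both. Uqcrc1, Atp5a1 and Atp5f1 also stay left, with squares at -0.01.

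Complex II feeds electrons from succinate into the chain and has 2 catalytic and 2 anchor subunits. Its median log2 fold change was -0.07, and 0.06 without WT replicate 2. Sdha (ENSMUSG00000021577, chromosome 13, 74322254 to 74350280) was between 2412 and 3032 CPM in the libraries labelled iFAXLKO, with a median of 2646. The WT libraries held 3055, 3169, 2648, 2727 and 3307 CPM. The groups overlapped, and 1 of 8 libraries labelled iFAXLKO was above the WT mean.

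The log2 fold change of Sdha was -0.15 (SE 0.08, edgeR adjusted p 0.717), and the exact 2-sided permutation test gave p = 0.049 before any correction. Its highest library was WT replicate 5, not WT replicate 2, and its value without WT replicate 2 was -0.13. Sdhb, which carries the iron-sulfur clusters, was at 1136 ± 108 CPM (mean ± SD) in the 8 libraries labelled iFAXLKO and at 1219 ± 283 CPM in the 5 WT libraries. The anchors Sdhc and Sdhd had log2 fold changes of -0.03 (SE 0.09) and 0.02 (SE 0.09). Sdhb and Sdhc turned to 0.05 and 0.07 without WT replicate 2.

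Complex III passes electrons from ubiquinol to cytochrome c. All 10 genes had a log2 fold change below 0, with a median of -0.06, which was 0.09 without WT replicate 2. Uqcrc2 (ENSMUSG00000030884, chromosome 7, 120635176 to 120659524), a core protein of the matrix arm, was the member with the lowest p of the set. It was between 1040 and 1269 CPM in the libraries labelled iFAXLKO, with a median of 1203. The WT libraries held 1253, 1551, 1314, 1284 and 1415 CPM. The groups overlapped by little, with all 8 libraries labelled iFAXLKO below the WT mean and all 5 WT libraries above the median of iFAXLKO.

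The log2 fold change of Uqcrc2 was -0.20 (SE 0.08), with an edgeR p of 0.0193 before and 0.551 after adjustment. The exact 2-sided permutation test gave p = 0.00233 before any correction, where 0.000777 is the smallest it can give. Of 42 members 3 had a permutation p under 0.05. The share of all genes under that limit was not computed, so the count has no background to be read against. Uqcrc2 was singled out by its low p in these same data. Uqcrc2 was less dependent on WT replicate 2 than most, at -0.15 (SE 0.07, adjusted p 0.386) without it and -0.19 (SE 0.06, adjusted p 0.375) with the length trend removed. It was -0.23 within the lower library numbers and -0.18 within the higher. Its annotated span overlaps that of Pdzd9 on the opposite strand, and overlap of exons was not examined. Whether counting used strand is not given in the sources used here.

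Uqcrc1, the other core protein, was at 1799 ± 150 CPM (mean ± SD) in the 8 libraries labelled iFAXLKO and at 1987 ± 396 CPM in the 5 WT libraries, with -0.14 (SE 0.11) on the log2 scale, which was -0.01 without WT replicate 2, where it stood at 2681 CPM. Uqcrfs1, the Rieske iron-sulfur protein, had -0.08 (SE 0.11), and the small subunits Uqcrq and Uqcr10 -0.10 (SE 0.16) and -0.06 (SE 0.14). Cycs, cytochrome c itself, was at 346 ± 21.2 CPM (mean ± SD) in the 8 libraries labelled iFAXLKO and at 355 ± 57.7 CPM in the 5 WT libraries. Uqcrfs1, Uqcrq, Uqcr10 and Cycs were all above 0 without WT replicate 2, at 0.04 to 0.15.

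Complex IV reduces oxygen to water, and its nuclear subunits surround a core made in the mitochondrion. Of 11 genes 10 were below 0, with a median of -0.05, and 0.14 without WT replicate 2. Cox6a1 (ENSMUSG00000041697, chromosome 5, 115345642 to 115348981) was between 1171 and 1495 CPM in the libraries labelled iFAXLKO, with a median of 1390. The WT libraries held 1156, 2222, 1323, 1200 and 1195 CPM. WT replicate 2 alone lay above the libraries labelled iFAXLKO, and the other 4 WT libraries lay below their median.

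The log2 fold change of Cox6a1 was -0.04 (SE 0.14) with all libraries and 0.18 (SE 0.07, unadjusted p 0.0256, edgeR adjusted p 0.361) without WT replicate 2. Cox4i1, which has a part in the allosteric control of the enzyme by ATP, had -0.10 (SE 0.13), with a span that overlaps Emc8 on the opposite strand. Cox6b1, on the outer face where cytochrome c binds, had -0.09 (SE 0.13), Cox7b -0.07 (SE 0.12) and Cox6c -0.06 (SE 0.13). These 4 turned to between 0.08 and 0.13 without that library.

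Cox6a2 and Atp5g1 followed the content of skeletal muscle RNA instead. Cox6a2 (ENSMUSG00000030785, chromosome 7, 128205435 to 128206387) is the isoform of heart and skeletal muscle that replaces Cox6a1 there. In replicate order it had 23.1, 11.2, 1.29, 0.699, 37.6, 4.74, 6.24 and 0.0398 CPM in the libraries labelled iFAXLKO. In WT it had 22.6, 23.5, 7.82, 4.74 and 0.0843 CPM. It rested on 1 and 2 reads in iFAXLKO replicate 8 and WT replicate 5 and on 1006 in iFAXLKO replicate 5.

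A muscle score, the mean log2 CPM of 15 skeletal muscle markers such as Ckm and Acta1, was lowest in the same 2 libraries, at -1.346 and 0.707, and highest at 8.064 in iFAXLKO replicate 5. The summed markers ran from 56.4 to 5978 CPM in the libraries labelled iFAXLKO and from 94.7 to 4150 CPM in WT, and none was at 0 in a library. Over 13 libraries Pearson's r between log2 CPM and the score was 0.99 for Cox6a2 and 0.83 for Atp5g1, and between -0.10 and 0.55 for the other 40 members. The points share the library. Cox6a2 made 0.459% of Cox6a per kb in the median library and 2.78% at most.

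The log2 fold change of Cox6a2 was -0.14 (SE 1.12, edgeR adjusted p 0.990) and 0.25 with the muscle score as a covariate. It was -2.50 within the lower library numbers and 0.89 within the higher. Atp5g1 was between 2.91 and 16 CPM in the libraries labelled iFAXLKO, with a median of 5.52, and at 10.4, 11.9, 4.91, 4.05 and 3.12 CPM in WT. The groups overlapped over most of their range, and its log2 fold change was 0.00 (SE 0.46), which leaving out 1 library moved between -0.30 (without iFAXLKO replicate 5) and 0.28 (without WT replicate 2). For comparison, Atp5g3 changed by 1.68 times from its lowest to its highest library and Atp5g1 by 5.49 times.

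**Figure D5:**
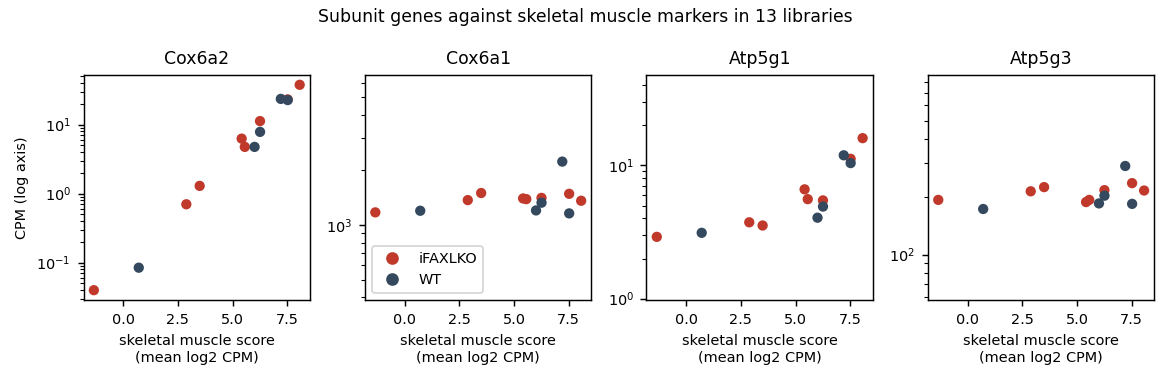
CPM on a log axis is drawn against the skeletal muscle score, in mean log2 CPM of 15 markers, for Cox6a2, Cox6a1, Atp5g1 and Atp5g3 in 13 libraries coloured by group. Cox6a2 rises with the score over nearly its whole range (0.0398 to 37.6 CPM) and Atp5g1 more gently, mostly at high scores, while their partners Cox6a1 and Atp5g3 stay nearly level.

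Complex V makes ATP in its F1 head, turned by the c ring, and is held by a peripheral stalk. Its 17 genes had a median log2 fold change of -0.05, with 13 below 0, and 0.13 without WT replicate 2. Atp5b (ENSMUSG00000025393, chromosome 10, 128083273 to 128090391), the catalytic subunit, was between 5736 and 8300 CPM in the libraries labelled iFAXLKO, with a median of 8186. The WT libraries held 8137, 11145, 8846, 8262 and 8879 CPM. The groups overlapped between 8137 and 8300 CPM, and none of the 8 libraries labelled iFAXLKO reached the WT mean.

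The log2 fold change of Atp5b was -0.21 (SE 0.11, edgeR adjusted p 0.696), and the exact 2-sided permutation test gave p = 0.0373 before correction. Without WT replicate 2 it was -0.13 (SE 0.09, adjusted p 0.605). Its lowest library, iFAXLKO replicate 7, stood apart from the other 7 of its group. Atp5a1, the F1 alpha subunit, was at 3981 ± 226 CPM (mean ± SD) in the 8 libraries labelled iFAXLKO and at 4192 ± 470 CPM in the 5 WT libraries, and the rotor shaft subunit Atp5c1 -0.08 (SE 0.10) on the log2 scale. Atp5c1 was at 0.04 without WT replicate 2, and Atp5a1 at -0.01.

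Atp5f1, the b subunit of the peripheral stalk, was between 483 and 589 CPM in the libraries labelled iFAXLKO, with a median of 527. The WT libraries held 526, 790, 534, 548 and 549 CPM. The high value of WT replicate 2 set the log2 fold change, which was -0.14 (SE 0.10) with it and -0.01 (SE 0.07) without it. The annotated span of Atp5f1 overlaps Wdr77 and that of Atp5j overlaps Gabpa, both on the opposite strand. The 2 Atp5o identifiers overlap on the same strand at chromosome 16 and had log2 fold changes of -0.07 (SE 0.13) each, and 0.11 and 0.12 without WT replicate 2.

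In the c ring, Atp5g2 was at 57.7 ± 2.08 CPM (mean ± SD) in the 8 libraries labelled iFAXLKO and at 55.8 ± 8.02 CPM in the 5 WT libraries, and Atp5g3 had 210 ± 16.9 CPM against 207 ± 47.8 CPM. Their log2 fold changes of 0.05 (SE 0.08) and 0.02 (SE 0.11) became 0.14 (SE 0.05) and 0.18 (SE 0.07) without WT replicate 2. All 8 libraries labelled iFAXLKO were then above the WT mean in both, as they were for Atp5d, Atp5h, Atp5j, Atp5k, Uqcrb and Sdhd. None of these passed the adjusted test. WT replicate 2 was the highest library for each of them, so leaving it out lowers the WT mean by itself. The share of all genes with this pattern was not computed.

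Partners of the set were compared in the same way, with and without WT replicate 2. The 36 nuclear subunits of complex I had a median log2 fold change of -0.05, with 35 below 0 and 0 called, which without that library became 0.14, with 34 above 0. The median of these genes in WT replicate 2 was 0.57 above the WT mean, close to 0.58 for complexes II to V. Ndufs1, Ndufa9 and Ndufv1 had -0.18 (SE 0.11), -0.13 (SE 0.09) and -0.11 (SE 0.10), and -0.18, -0.03 and 0.02 without WT replicate 2. Of 39 assembly factors 32 were below 0, with a median of -0.08 and 0 called, and without that library 27 were above 0, with a median of 0.03. They included Taco1, a translation activator for a core complex IV subunit, at -0.20 (SE 0.13), Cox16 at -0.15 (SE 0.11) and Bcs1l, which inserts the Rieske protein, at -0.12 (SE 0.08), which became -0.15, -0.01 and -0.03. At an unadjusted p under 0.05 there were 0 of these 75 partner genes, against 7.38% of all genes, and 8 without WT replicate 2, against 12%.

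The mitochondrially encoded partners gave uneven counts. The core subunit mt-Co1 was between 51080 and 64598 CPM in the libraries labelled iFAXLKO and between 54983 and 61887 CPM in WT. For mt-Cytb, the core of complex III, the values were 50030 to 61120 and 49731 to 65000 CPM. Yet mt-Co2 was at 1.63 to 3.65 CPM over all libraries, mt-Co3 and mt-Atp6 at 2.52 to 4.75 CPM, and mt-Atp8 at 0.544 to 1.28 CPM. These 4 genes, which encode core subunits of complexes IV and V, are therefore not used as levels here, and the cause of their low counts was not tested. The log2 fold change of mt-Cytb was -0.04 (SE 0.08), and 0.02 without WT replicate 2. In that library, where 39 of the nuclear subunit genes were at their highest, both well counted partners went different ways. There mt-Cytb was at its highest of all libraries, 65000 CPM, whereas mt-Co1 stood at 55270 CPM, within the range of the others.

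Regulators known to drive respiratory genes were followed as well. Over 11 of them the median deviation from the WT mean was -0.16 in WT replicate 2. Their exon unions ran from 3836 bases (Ppara) to 10282 bases (Nrf1), and longer genes were low across the transcriptome in that library. The part of exon length in these values was not tested. The regulators went both ways there, with 2 of 11 at their highest of all libraries and 3 at their lowest. Esrra, the receptor ERR alpha, stood at 293 CPM (175 to 251 CPM in the others), and Tfam, which packs and transcribes mitochondrial DNA, at 51.4 CPM (40 to 47.8 CPM in the others). Ppargc1b, a coactivator of mitochondrial biogenesis, was at 56.8 CPM, against 79.5 to 116 CPM in the others. Between groups their median log2 fold change was 0.00 (-0.02 without WT replicate 2), with 0 called by edgeR and 0 at an unadjusted p under 0.05, and Nrf1 had 0.13 (SE 0.09), Ppara -0.42 (SE 0.31) and Gabpa -0.13 (SE 0.10). Single libraries moved these values, between 0.09 (without WT replicate 2) and 0.22 (without WT replicate 3) for Nrf1, between -0.63 (without WT replicate 2, unadjusted p 0.0299, edgeR adjusted p 0.375) and -0.24 (without WT replicate 1) for Ppara, and between -0.18 (without WT replicate 2) and -0.07 (without iFAXLKO replicate 7) for Gabpa. Ucp1 was at 5599 ± 1121 CPM (mean ± SD) in the 8 libraries labelled iFAXLKO and at 6367 ± 914 CPM in the 5 WT libraries, with -0.19 (SE 0.14, edgeR adjusted p 0.835) on the log2 scale and -0.10 without WT replicate 2, and was also highest in WT replicate 2, at 7894 CPM.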

How the data were processed

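Polyadenylated RNA of iBAT was sequenced per the labels. The authors deposited counts of reads that were not normalised, with 42416 Ensembl identifiers in each library. The submitters' processing notes name bcl2fastq 2.20, fastp 0.20.0, STAR 2.7.4a and DESeq2 with GRCm38.p6, whereas the methods of the study name other trimming and mapping tools and ribosomal depletion. The counting tool and strand setting are not given in the sources used here. These choices decide which reads of genes with copies or overlaps are counted.

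Positions, exon lengths and copies (blastn 2.17.0) came from GENCODE M21. Genes over 1 CPM in at least 5 libraries (13360) were scaled with TMM factors and tested with edgeR 4.0.16 (quasi-likelihood, robust, 2-sided, Benjamini-Hochberg over all genes tested). The SE is the log2 fold change divided by the square root of F. Gene levels in CPM use library totals multiplied by TMM factors, and log2 CPM a prior count of 2. The factors ran from 0.8973 in WT replicate 2, which raises its CPM, to 1.0626 in iFAXLKO replicate 4. Single genes were also compared by exact permutation over 1287 splits. A count of 0 allows 3 counts (0.092 to 0.134 CPM, counting error only). On simulated counts, the test was checked for recovery of known changes. These counts were drawn for each gene separately, without a shift of a library or an exon length trend. The check therefore does not cover the pattern seen in WT replicate 2. The labels number the replicates without saying that each is another animal, whereas the study gives the same numbers as its n of mice. If the labels alone are followed, p-values measure only the spread between these samples.

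Named genes are, per complex, the 4 of lowest p, any with an unadjusted p under 0.05, and the highest and lowest per kb, with Cox6a1, Cox6a2, Axl, Ucp1, up to 3 genes of each partner list and the 3 most alike non-members. Others were named after their values were seen. Members and lists were chosen with earlier results of these data known. Alternatives were DESeq2, limma-voom with quality weights, RLE factors, library sizes without the top 10 and mitochondrial genes, library totals, no filter, protein-coding genes alone, a replicate block, library number or muscle score as a covariate, ranges of library numbers, leaving out each library, and, chosen after seeing the data, removal of the length trend and of the 2 libraries of lowest muscle score.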

Additional observations from a re-analysis of the deposited data

Results flagged for a closer look

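Several values of named members lay far from the others of their group by Dixon's criterion, which chance meets in about 1 of 20 groups. Within WT, replicate 2 was the outlying high library in 13 members: Sdhc (707 CPM), Sdhd (985 CPM), Uqcrc1 (2681 CPM), Uqcrq (1459 CPM), Uqcr10 (786 CPM), Cycs (456 CPM), Cox6b1 (1601 CPM), Cox7b (1059 CPM), Cox6c (944 CPM), Cox6a1 (2222 CPM), Atp5b (11145 CPM), Atp5f1 (790 CPM) and Atp5c1 (776 CPM). The same library stood apart in the median deviation from the WT mean of all members (0.58 on the log2 scale), of complex II (0.37) and of complex V (0.60), while those of complexes III and IV did not pass the limit. These flags share 1 library and are not independent. Among the libraries labelled iFAXLKO, replicate 8 was low for Cox6a1 (1171 CPM) and replicate 7 for Atp5b (5736 CPM). In all, 18 of 52 groups examined were flagged.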

How the results depend on the processing

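No member was called under any alternative that gave a test, and the lowest adjusted p of a member over them was 0.223 (DESeq2). Directions were less stable. Leaving out 1 library moved the median log2 fold change between -0.13 and 0.12 for all members, -0.11 and 0.06 for complex II, -0.14 and 0.09 for complex III, -0.12 and 0.14 for complex IV and -0.12 and 0.13 for complex V, members at an unadjusted p under 0.05 between 1 and 7 (7 without WT replicate 2) and genes called between 14 and 19. Other scalings kept the median between -0.06 and 0.01. Genes called were 67 with DESeq2, 7 with protein-coding genes alone, 7 with the replicate block and 11 without the 2 libraries of lowest muscle score, against 17. Members at an unadjusted p under 0.05 were 3 with DESeq2 (8.3% of all genes), 4 with limma-voom (3 of them above 0, 11.3%), 2 with the replicate block (11.4%) and 0 without those 2 libraries (5.02%), against 1 (7.38%). The median of the members was 0.09 with limma-voom, with 36 of 42 above 0.

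Of 895 values of 36 named genes under alternatives, 841 kept direction and side of the threshold and 54 turned, and the cause was not tested. With limma-voom and quality weights Sdhb was 0.03, Sdhc 0.05, Uqcrfs1 0.02, Uqcrq 0.09, Uqcr10 0.11, Cycs 0.05, Cox4i1 0.05, Cox6b1 0.07, Cox7b 0.07, Cox6c 0.10, Cox6a1 0.16, Atp5c1 0.02, Cox7a1 0.02, Cox8b 0.06, mt-Cytb 0.01 and Ndufv1 0.02. With the replicate block Sdhb was 0.01, Uqcrfs1 0.04, Uqcrq 0.06, Uqcr10 0.05, Cox4i1 0.02, Cox6c 0.04, Cox6a1 0.05 and Cox8b 0.03, and the median of the members 0.04. Deviations of same-numbered samples correlated from -0.61 to 0.42. These values cannot tell whether the numbers pair the samples, since differently numbered samples were not compared. With library totals alone Sdhc was 0.03, Uqcr10 0.01, Cycs 0.02, Cox6c 0.01, Cox6a1 0.03 and mt-Cytb 0.02. Leaving out 1 library at a time moved the log2 fold change between -0.18 and 0.05 for Sdhb, -0.07 and 0.07 for Sdhc, -0.03 and 0.13 for Sdhd, -0.14 and 0.04 for Uqcrfs1, -0.19 and 0.12 for Uqcrq, -0.14 and 0.15 for Uqcr10, -0.08 and 0.07 for Cycs, -0.18 and 0.08 for Cox4i1, -0.17 and 0.11 for Cox6b1, -0.14 and 0.10 for Cox7b, -0.13 and 0.13 for Cox6c, -0.10 and 0.18 for Cox6a1, -0.79 and 0.26 for Cox6a2, -0.12 and 0.04 for Atp5c1, -0.26 and 0.05 for Cox7a1, -0.25 and 0.08 for Cox8b, -0.06 and 0.02 for mt-Cytb and -0.15 and 0.02 for Ndufv1. The highest value of each was reached without WT replicate 2. Cox6a2 was 0.19 with library number and 0.25 with the muscle score as a covariate.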
